A study of Homo sapiens with 4 samples.

Results

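The genes described here encode 10 cell-surface adhesion molecules through which myeloma cells hold on to the bone marrow: NCAM1, ALCAM, ITGA4, ITGB1, ITGAL, ICAM1, ICAM2, ICAM3, SELPLG and CD9. They were taken by name, as the probe sets that the platform annotation pairs with these symbols, out of 53617 probe sets in all. A named probe set was found for 7 of the 10, with 1 probe set each. ITGA4, ITGB1 and ITGAL, the chains of the integrins VLA-4 and LFA-1, have no named probe set here and are not analysed. Of the 7, 5 lay above the filter on low values and were tested among 7442 genes (NCAM1, ALCAM, ICAM2, ICAM3 and SELPLG). ICAM1 and CD9 lay below it and are given as values.

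RNA came from ARP-1 and MM.1S, established human cell lines of the plasma cell cancer multiple myeloma. Each line was infected with a lentivirus that carried a short hairpin RNA, against MIF (MIF-KO) or a control (CTR-KO), and GFP-positive cells were sorted. MIF is a secreted inflammatory cytokine, and a hairpin lowers its transcript without removing the gene, so KO names a knockdown here. There were 4 whole-transcript arrays, 1 for each line and condition, which gives n = 2 arrays per condition. All 4 populations share the lentiviral infection, the sorting and the same culture medium. The labels name no separate cultures within a line and condition. The p-values thus rest on how far the differences of the 2 lines disagree on these arrays. Biological and technical parts of that disagreement cannot be told apart.

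The titles and genotype labels name the same condition for every array, but for ARP-1 the description fields give each of the 2 arrays the other condition. Arrays are called here by their titles. MIF itself had an intensity of 1092 with CTR-KO and 541 with MIF-KO in ARP-1, and of 1012 and 405 likewise in MM.1S, so it was lower on the array titled MIF-KO in each line. Median intensity was 13.1 to 13.3 on the 4 arrays. The control array of ARP-1 was unlike the others. Between it and the MIF-KO array of its own line 43 genes differed at least 4-fold. There were 44 between it and the control array of MM.1S and 20 between it and the MIF-KO array of MM.1S. The MIF-KO array of ARP-1 and the control array of MM.1S differed so in 2 genes. Log2 differences had a standard deviation of 0.545 between the ARP-1 arrays and 0.338 between the MM.1S arrays. Each ARP-1 array was closer to the MM.1S array of the other condition, at 0.389 for CTR-KO ARP-1 and 0.315 for MIF-KO ARP-1. The arrays thus did not group by line. The control array of ARP-1 was farthest from the gene's mean for 38.9% of tested genes. All 7 named markers of plasma cells passed the filter, with a summed intensity of 5815 to 6856 per array. The sum was highest with MIF-KO in ARP-1, where IRF4, XBP1 and MZB1 were higher than with CTR-KO. On that array SDC1 (log2 7.52 against 8.88 with CTR-KO) and CD38 (5.39 against 6.83) were lower. Of other markers 0 of 4 myeloid, 0 of 2 B cell, 0 of 1 T cell and 0 of 1 stromal passed. Of 3 named epithelial markers 1 passed, the keratin KRT18, at a mean log2 value of 7.43.

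Malignant plasma cells lodge in the marrow in steps. Selectins on vessel walls catch glycoproteins such as PSGL-1, the product of SELPLG, chemokines then activate integrins, and integrins bind immunoglobulin-family partners such as VCAM1 and the ICAMs or matrix proteins such as fibronectin. NCAM1 (CD56) and ALCAM (CD166) are immunoglobulin-family molecules that join cells to like cells. NCAM1 is present on the plasma cells of many myeloma patients and is used in diagnosis. CD9 is a tetraspanin, a membrane organiser that sits beside integrins.

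The RefSeq promoter table holds an entry for 6 of the 10 genes. The 250 bases upstream of the start are printed for ALCAM, the one member at least 1.5-fold apart in a line that has a promoter there, and for ICAM1, the member with a well-known NF-kappaB site and a signal below the filter. Capitals mark the GC box (GGGCGG or its complement CCGCCC) in ALCAM, at chr3:105366659-105366908, and the NF-kappaB site (GGAAATTCC or GGAATTTCC) in ICAM1, at chr19:10270870-10271119. Both are on the plus strand of GRCh38.p14, 5′ to 3′.
ALCAM: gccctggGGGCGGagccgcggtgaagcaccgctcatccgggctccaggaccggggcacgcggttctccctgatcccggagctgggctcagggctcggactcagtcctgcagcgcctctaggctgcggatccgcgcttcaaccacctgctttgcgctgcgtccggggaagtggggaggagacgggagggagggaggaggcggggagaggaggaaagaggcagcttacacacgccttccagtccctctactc
ICAM1: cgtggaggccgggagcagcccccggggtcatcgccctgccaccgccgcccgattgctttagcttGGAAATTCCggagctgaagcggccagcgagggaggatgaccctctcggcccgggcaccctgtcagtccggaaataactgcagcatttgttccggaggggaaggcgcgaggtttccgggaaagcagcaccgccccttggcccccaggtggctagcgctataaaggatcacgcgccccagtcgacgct
The ALCAM window held 1 GC box, 243 bases before the start, and 0 matches to the NF-kappaB letters. The ICAM1 window held 1 NF-kappaB match, 186 bases before the start, and 2 GC boxes, which do not overlap it and are left in lower case. On either strand, a GC box was present in 42.6% of the 35116 promoter windows of this length and the NF-kappaB letters in 0.413%. The ALCAM window was 68.8% and the ICAM1 window 66.0% G and C, against a median of 58.0% over all windows. A match is a description of the letters and not a measured site.

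NCAM1 and ALCAM, the adhesion molecules that bind like to like, were higher with MIF-KO than with CTR-KO in ARP-1 and lower with MIF-KO in MM.1S. NCAM1 had an intensity of 90.9 with CTR-KO and 352 with MIF-KO in ARP-1, and of 246 with CTR-KO and 167 with MIF-KO in MM.1S. The CTR-KO ARP-1 array was the low one, and the values of the conditions overlapped. In ARP-1 this was a 3.87-fold higher value with MIF-KO, a log2 difference of 1.95, which ranked 35 from the highest of 7442 genes. In MM.1S the log2 difference was -0.56, a value on CTR-KO 1.48 times that on MIF-KO. Over both lines the mean difference for NCAM1 was 0.70 (SE 0.64, n = 2 lines; 95% interval -0.94 to 2.33; limma adjusted p = 0.99995).

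ALCAM had an intensity of 64.0 with CTR-KO and 154 with MIF-KO in ARP-1, and of 130 with CTR-KO and 111 with MIF-KO in MM.1S. Its 4 arrays stood in the same order as those of NCAM1: ARP-1 with CTR-KO lowest, then MM.1S with MIF-KO, MM.1S with CTR-KO and ARP-1 with MIF-KO. The MIF-KO value of ALCAM was 2.41 times that of CTR-KO in ARP-1, a log2 difference of 1.27, against -0.23 in MM.1S. The mean over both lines was 0.52 (SE 0.43, n = 2 lines; 95% interval -0.59 to 1.64; limma adjusted p = 0.99995). That order of arrays was found in 628 of the 7442 tested genes, or 8.44%.

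NCAM1 and ALCAM were the 2 of 5 tested members at least 1.5-fold higher with MIF-KO in ARP-1, where 10.9% of all tested genes were. In the other direction there were 0 members in ARP-1, against 11.9% of tested genes. In MM.1S 0 of 5 differed by 1.5-fold, against 5.12% of tested genes higher and 2.89% lower. NCAM1 lay just inside that bound in MM.1S, and with quantile normalization its difference there was -0.60, past it. For both genes the CTR-KO ARP-1 array lay farthest from the gene's mean, at -1.07 log2 units for NCAM1 and -0.77 for ALCAM. Its part in the differences was not tested. Natural killer cells also carry NCAM1. Of their 4 markers, 2 were named, NCR1 and GNLY. Both lay just above the filter on average, with a summed intensity of 56.6 to 91.3 per array. In ARP-1, where NCAM1 differed most, the sum was 88.6 with CTR-KO and 91.3 with MIF-KO. There NCR1 had log2 values of 5.42 with CTR-KO and 5.29 with MIF-KO, and GNLY of 5.51 and 5.71. In MM.1S GNLY was at 4.52 with CTR-KO, below the filter, and at 5.15 with MIF-KO. Whether such cells had a part in the values of NCAM1 was not tested.

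**Figure D1:**
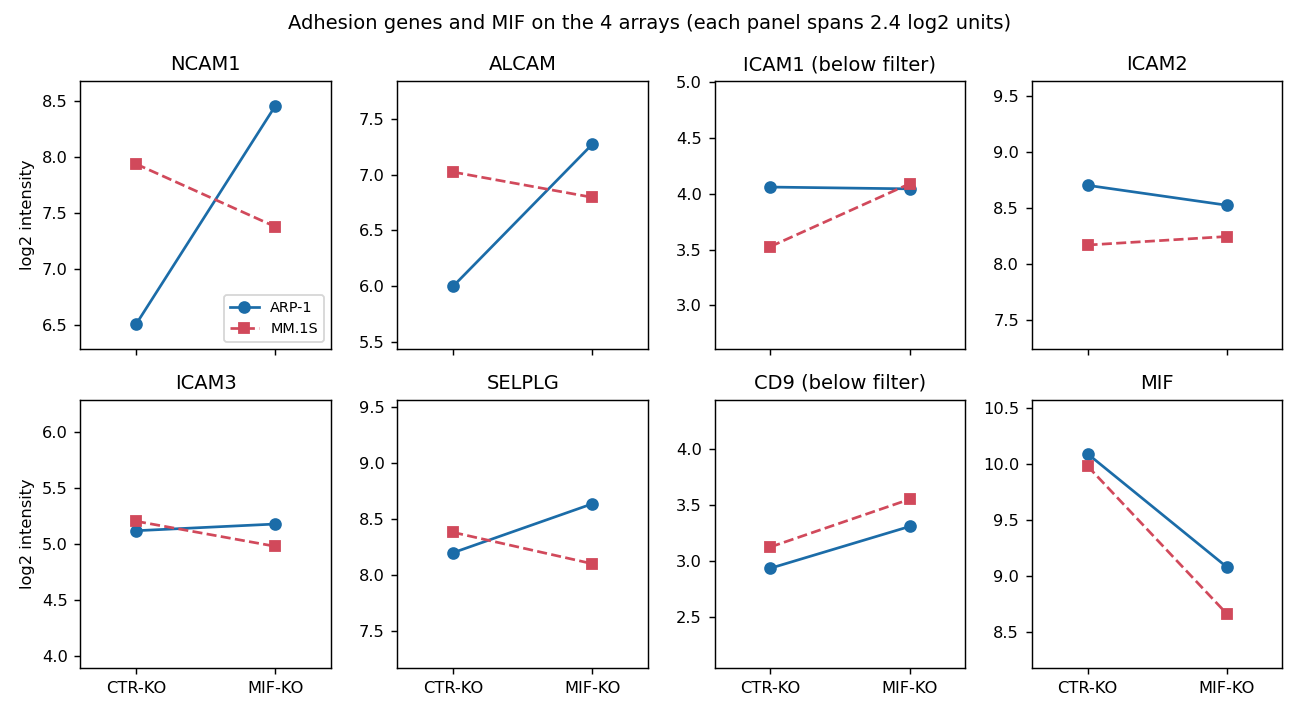
Log2 intensity of the 7 adhesion genes with a probe set and of MIF on the CTR-KO and MIF-KO arrays of ARP-1 (circles, solid lines) and MM.1S (squares, dashed lines), 1 array per point and no error bars. Each panel spans the same range of log2 units. The lines of NCAM1, ALCAM, SELPLG, ICAM3 and ICAM1 cross, while those of MIF and CD9 run alike.

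The ICAMs are the ligands of LFA-1, the leukocyte integrin whose alpha chain is ITGAL. ICAM2, found on leukocytes and endothelium without stimulation, had an intensity of 417 with CTR-KO and 368 with MIF-KO in ARP-1, and of 288 with CTR-KO and 303 with MIF-KO in MM.1S. Both ARP-1 values were above both MM.1S values, while the conditions overlapped. With MIF-KO its log2 difference was -0.18 in ARP-1 and 0.08 in MM.1S, with a mean of -0.05 (SE 0.30, n = 2 lines; 95% interval -0.83 to 0.73; limma adjusted p = 0.99995).

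ICAM3, the ICAM of resting leukocytes, had an intensity of 34.8 with CTR-KO and 36.2 with MIF-KO in ARP-1, and of 36.9 and 31.6 likewise in MM.1S. Its values were close on all 4 arrays and overlapped in every grouping. The mean difference was -0.08 (SE 0.20, n = 2 lines; 95% interval -0.60 to 0.44; limma adjusted p = 0.99995).

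ICAM1, the form induced by inflammatory signals, had an intensity of 16.7 with CTR-KO and 16.5 with MIF-KO in ARP-1, and of 11.5 with CTR-KO and 17.0 with MIF-KO in MM.1S. The CTR-KO MM.1S array was the low one, and the other values were alike. Its log2 differences were -0.02 in ARP-1 and 0.56 in MM.1S. All 4 values lay near the array medians of 13.1 to 13.3, so a difference of this size near the floor of the array is uncertain. With no filter ICAM1 had a mean of 0.27 and a limma adjusted p of 0.99996.

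SELPLG, whose product PSGL-1 is the ligand that P-selectin catches, had an intensity of 294 with CTR-KO and 398 with MIF-KO in ARP-1, and of 333 with CTR-KO and 274 with MIF-KO in MM.1S. The MIF-KO arrays held both the highest and the lowest value, so the conditions overlapped. Its log2 differences of 0.44 in ARP-1 and -0.28 in MM.1S had the same signs as those of NCAM1 and ALCAM and were smaller. The mean for SELPLG was 0.08 (SE 0.34, n = 2 lines; 95% interval -0.80 to 0.95; limma adjusted p = 0.99995).

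CD9 was the member with the same sign in both lines. It had an intensity of 7.64 with CTR-KO and 9.90 with MIF-KO in ARP-1, and of 8.71 with CTR-KO and 11.7 with MIF-KO in MM.1S. Both MIF-KO values were above both CTR-KO values. The log2 differences were 0.37 and 0.43, but all 4 values were below the array medians, and the deposited values carry no detection call. With no filter, the mean of 0.40 for CD9 had an unadjusted p of 0.0308 and a limma adjusted p of 0.99996 over 14884 genes. With 10 added to each intensity before the logarithm the mean was 0.19.

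In all, the differences of 5 of 5 tested members had opposite signs in the lines. Over all tested genes 67.6% had, so the members' count has to be read against a high background. At 1.5-fold in both lines, 0 members stood in opposite directions (4.88% of tested genes) and 0 in the same direction (0.0806%). Limma called 0 of 7442 genes and 0 of the 5 members (0% called), and 29 genes, of which 0 were members, had an unadjusted p below 0.05. The error of that test joins the disagreement of the lines (1 degree of freedom) with a prior from all tested genes (3.99). Bulk RNA cannot tell a smaller share of cells with a transcript from less of it per cell.

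The direction for ARP-1 rests on the titles. With the ARP-1 arrays exchanged as their descriptions name them, the mean difference of NCAM1 was -1.26 with a limma adjusted p of 0.0329, the 1 member called, among 401 genes called. Over the 9 alternatives fitted for NCAM1 the adjusted p ranged from 0.0329 to 0.99998. ALCAM was then at -0.75 (limma adjusted p = 0.102, range over its 8 alternatives 0.102 to 0.99998) and SELPLG at -0.36 (0.257, range over its 9 alternatives 0.257 to 0.99998). MIF, with the arrays so exchanged, differed by a mean of -0.15.

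**Figure D2:**
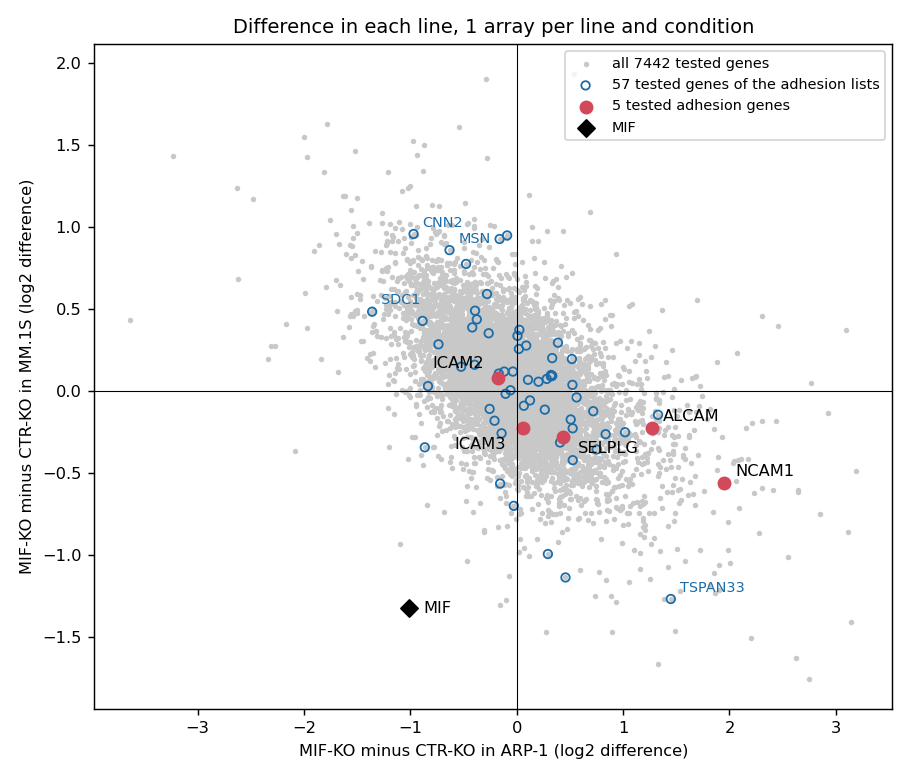
Log2 difference, MIF-KO minus CTR-KO, in ARP-1 (horizontal axis) and MM.1S (vertical axis) for the 7442 tested genes (grey), the 57 tested genes of the adhesion lists (blue rings), the 5 tested adhesion genes (red) and MIF (black diamond), each from 1 array per line and condition. NCAM1 and ALCAM lie at the right below 0, and MIF lies at the lower left, lower in both lines.

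Between the lines, no member held a difference of 1.5-fold in both conditions. The arrays did not group by line, which limits what this comparison can say of the lines. Under CTR-KO, NCAM1 was 2.70 times and ALCAM 2.03 times as high on the MM.1S array as on the ARP-1 array (log2 1.43 and 1.02). Under MIF-KO the order was the reverse, with NCAM1 2.11 times and ALCAM 1.39 times as high on the ARP-1 array. NCAM1 and ALCAM were thus 2 of 5 members at least 1.5-fold higher in MM.1S under CTR-KO, where 11.2% of tested genes were, with 0 lower (11.1% of tested genes). Under MIF-KO, NCAM1 was the 1 member at least 1.5-fold lower in MM.1S (4.37% of tested genes), and 0 were higher (8.22%).

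ICAM2 kept its order of lines, with a log2 difference, MM.1S minus ARP-1, of -0.53 under CTR-KO and -0.28 under MIF-KO. Its mean was -0.41 (SE 0.30, n = 2 arrays per line; 95% interval -1.19 to 0.38; limma adjusted p = 0.99986). CD9 stood at 0.19 and 0.24. SELPLG stood at 0.18 and -0.54, and ICAM3 at 0.09 and -0.20, so their order turned with the condition. Limma called 0 of 7442 genes between the lines (0% called), and 87 genes, 0 of them members, had an unadjusted p below 0.05.

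**Figure D3:**
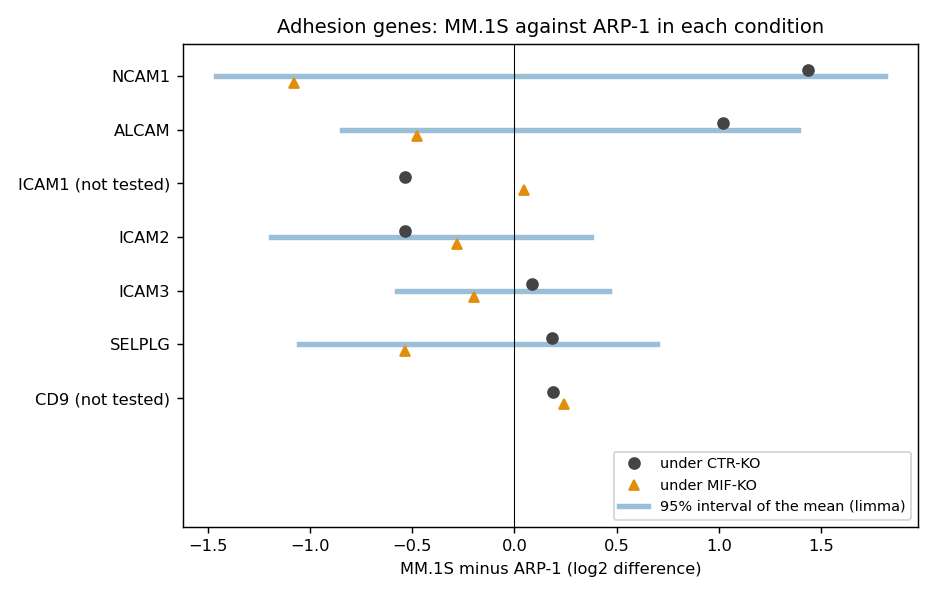
Log2 difference, MM.1S minus ARP-1, for the 7 adhesion genes under CTR-KO (circles) and MIF-KO (triangles), 1 array per line and condition, with the 95% interval of the mean from limma as a bar for the 5 tested genes. The points of NCAM1, ALCAM, SELPLG, ICAM3 and ICAM1 lie on opposite sides of 0. Those of ICAM2 and CD9 lie on the same side, and every bar spans 0.

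The molecules around these members were described through 10 lists. They hold 168 genes that are no members of the group, of which 97 were named and 57 tested. No integrin chain was named (0 of 16 alpha and 0 of 7 beta subunits). Of the 57 genes, 6 were at least 1.5-fold higher and 7 lower with MIF-KO in ARP-1, near the 10.9% and 11.9% of all tested genes. In MM.1S 6 were higher and 4 lower, where 5.12% and 2.89% of all tested genes were. Their medians were 0.02 in ARP-1 and 0.07 in MM.1S, beside -0.03 and 0.04 over all tested genes. CXCR3, TSPAN31 and TNC are in the counts at 1.5-fold, though they passed the filter only through arrays where they were high. Limma called 0 of the 57 in either comparison, so the differences below are values from 1 array per line and condition.

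Immunoglobulin-family adhesion molecules other than the members (7 tested of 20) had a median of 0.52 in ARP-1 and 0.04 in MM.1S, with 2 of 7 at least 1.5-fold higher in ARP-1 (10.9% of all tested genes) and 0 lower. CADM1, which joins cells through like partners much as NCAM1 does, differed by 1.02 (ARP-1) and -0.25 (MM.1S). CD48, a signalling ligand on blood cells, differed by 0.84 and -0.26, and ESAM, a junction molecule of endothelium and platelets, by 0.53 and -0.23. CD48 stood in the same order of arrays as NCAM1. Among partners of NCAM1 (2 tested of 9), the prion protein gene PRNP, whose product binds NCAM1, differed by 1.33 and -0.15, in that same order, and the growth factor receptor FGFR1 by -0.42 and 0.39. In all, 8 of the 57 genes had this order (14%, against 8.44% of all tested genes). The order was read from NCAM1 and ALCAM on these same arrays, and the lists were chosen with earlier results known. The share is thus a description and no independent support. Among the 8 was TSPAN31, which passed the filter only through the arrays where it was high and adds nothing to that share.

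Tetraspanins and their partners (11 tested of 20), the family of CD9, had medians of 0.11 and -0.02, with 2 at least 1.5-fold higher in ARP-1 (10.9% of all tested genes) and 1 lower in MM.1S (2.89%). TSPAN33 is a tetraspanin of B cells and of red cell precursors. Its log2 values were 7.85 with CTR-KO and 9.30 with MIF-KO in ARP-1, and 9.25 and 7.98 likewise in MM.1S. It differed by 1.45 (ARP-1) and -1.27 (MM.1S). TSPAN31 differed by 0.75 and -0.36. It passed the filter only through the arrays where it was high, so it adds nothing to the 2 counted in ARP-1. TSPAN13 differed by -0.16 and -0.56. CD37, a tetraspanin of mature B cells, was singled out after its values were seen because it held a difference between the lines. Its difference, MM.1S minus ARP-1, was -1.45 under CTR-KO and -1.54 under MIF-KO, with a mean of -1.50 (SE 0.29, 95% interval -2.24 to -0.75), an unadjusted p of 0.00368 and a limma adjusted p of 0.99986.

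Among linkers of the membrane to actin (5 tested of 12), MSN, EZR and CNN2 were lower with MIF-KO in ARP-1 and higher in MM.1S, the reverse of NCAM1. The list's median was -0.48 in ARP-1 and 0.77 in MM.1S, with 2 of 5 at least 1.5-fold lower in ARP-1 (11.9% of all tested genes) and 3 of 5 higher in MM.1S (5.12%). Moesin (MSN), which ties ICAMs and PSGL-1 to the cell cortex, differed by -0.63 (ARP-1) and 0.86 (MM.1S). Ezrin (EZR), its close relative, differed by -0.48 and 0.77, and the actin-binding calponin CNN2 by -0.97 and 0.96. Radixin (RDX), named with RHOA after their values were seen, differed the other way, by 0.26 and -0.11, and the small GTPase RHOA was near 0, at -0.04 and 0.12.

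Genes of integrin activation and linkage (16 tested of 30) had medians of 0.04 in ARP-1 and 0.10 in MM.1S and opposite signs in the lines for 8 of 16. In ARP-1 0 genes were past 1.5-fold. In MM.1S 2 were higher (5.12% of all tested genes): RASGRP2, an exchange factor that switches on RAP1, by 0.93, and ITGB1BP1, which binds the tail of the beta-1 chain, by 0.59. In ARP-1 these differed by -0.16 and -0.28, and the adaptor SKAP1 by 0.56 (-0.04 in MM.1S). Kindlin-3 (FERMT3) and talin (TLN1), which bind integrin tails and were added here after their values were seen, differed by 0.32 and -0.17 in ARP-1 and by 0.10 and 0.11 in MM.1S.

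Of 19 integrin ligands and matrix genes 10 were named, and 7 of these lay below the filter. The 3 tested were each at least 1.5-fold lower with MIF-KO in MM.1S, where 2.89% of all tested genes were. Fibronectin (FN1), the matrix ligand of VLA-4, had log2 values of 5.60 with CTR-KO and 6.06 with MIF-KO in ARP-1, and of 7.07 with CTR-KO and 5.93 with MIF-KO in MM.1S. The matrix protein tenascin-C (TNC) had log2 values of 4.58 with CTR-KO and 4.87 with MIF-KO in ARP-1, and of 6.06 and 5.07 likewise in MM.1S. For both genes the control array of MM.1S was high and the other 3 were closer together. TNC reached the filter of 4.97 on average through that high array, so its difference supports no count. The mucosal addressin MADCAM1 differed by -0.03 in ARP-1 and by -0.70 in MM.1S, where its MIF-KO value of 4.84 lay below the filter. With 10 added before the logarithm, 2 of the 3 were past 1.5-fold in MM.1S. TNC was among these 2 and supports no count there either.

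Genes for selectins and for building their ligands (4 tested of 22) had medians of 0.12 and 0.15. GALNT1, which starts the O-linked sugars that PSGL-1 carries, differed by -0.09 (ARP-1) and 0.95 (MM.1S), the 1 gene of the list past 1.5-fold (5.12% of all tested genes were higher in MM.1S). The chaperone C1GALT1C1 of the next step differed by 0.33 and 0.09, and the sulfotransferase CHST2 by 0.33 and 0.20.

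The remaining homing receptors (9 tested of 13) had a median of -0.74 in ARP-1 and 0.03 in MM.1S, with 5 of 9 at least 1.5-fold lower and 1 higher in ARP-1 (11.9% and 10.9% of all tested genes) and 0 past that size in MM.1S. The higher one, named after its values were seen, was CXCR4, the receptor for the marrow chemokine CXCL12, which differed by 0.72 (ARP-1) and -0.12 (MM.1S). The plasma cell proteoglycan SDC1 differed by -1.36 (ARP-1) and 0.48 (MM.1S), and the hyaluronan receptor CD44 by -0.89 and 0.43. The chemokine receptor CXCR3 differed by -0.86 and -0.34, lower in both lines (mean -0.60, SE 0.22, unadjusted p = 0.0401, limma adjusted p = 0.99995). Its log2 values were 5.60 and 5.01 on the CTR-KO arrays and 4.74 and 4.67 on the MIF-KO arrays. CXCR3 thus passed the filter of 4.97 only through the arrays where it was high. Its p supports nothing, and CXCR3 adds nothing to the 5 genes counted as lower in ARP-1.

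**Figure D4:**
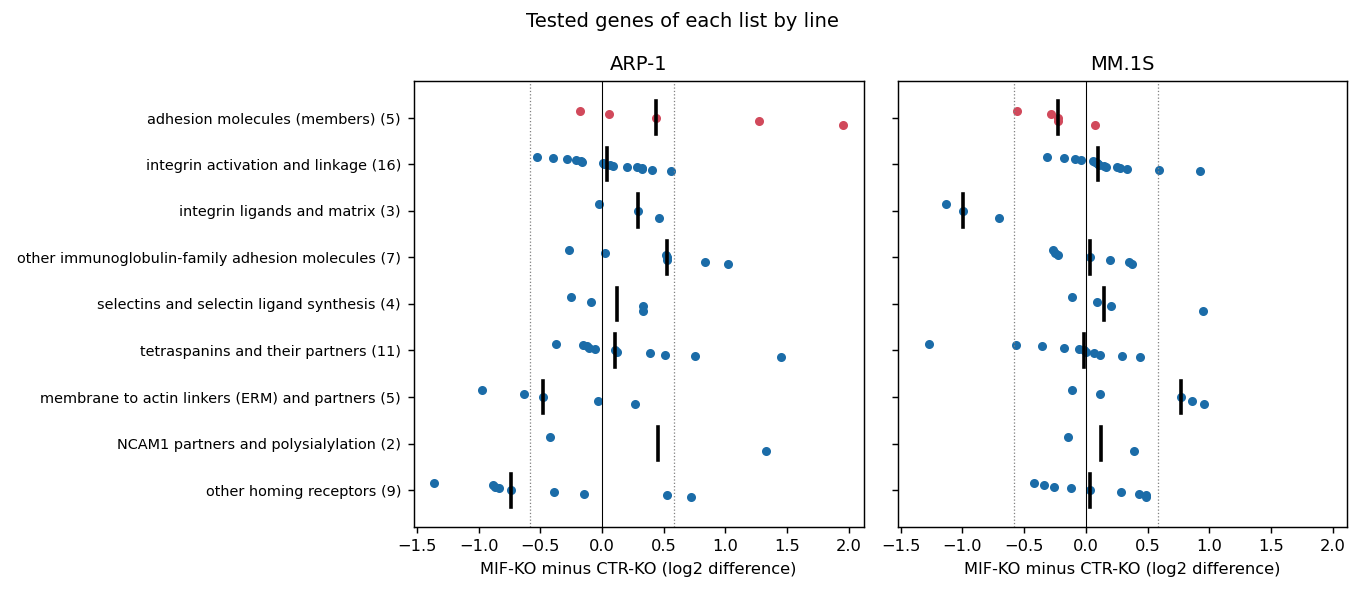
Log2 difference, MIF-KO minus CTR-KO, in ARP-1 (left) and MM.1S (right) for each tested gene of the members (red) and of the adhesion lists (blue), with the number of tested genes in brackets, the list median as a black bar and dotted lines at 1.5-fold. NCAM1 and ALCAM form the far right of the members in ARP-1, and the actin linkers MSN, EZR and CNN2 lie left of 0 in ARP-1 and right of 0 in MM.1S.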

How the data were processed

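Each array came with 1 column of intensities per probe set as deposited by the authors, on a linear scale between 2.74 and 15935. Per the submitters' processing notes RMA and limma were used, in roles and versions not stated. The build and the annotation used upstream are likewise "not given in the sources used here". Log2 was taken with no pseudocount. The platform annotation gave 1 symbol for 16098 probe sets, and 37519 are unnamed. Where a gene had several probe sets (779 of 14884), the brightest on average was used. Genes were tested if their mean reached 4.97, the median over genes.

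The model was limma 3.58.1 (R 4.3.3), with cell line and condition as terms and eBayes with a trend. Benjamini-Hochberg adjustment ran over all genes tested, at 0.05. The model has 1 residual degree of freedom and 3.99 from the prior. Cell line is the pairing, from the labels. Across genes, same-line arrays' deviations from condition means correlated at -0.37. The script was tested on simulated data. No depth exists for arrays, so their number limits the precision. From each list, up to 3 tested genes of largest difference in either line are named. Members and lists were chosen with earlier results of these data known. Alternatives covered the pairing, the ARP-1 labels, filters, scaling, a pseudocount, probe set means, the trend and each line left out.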

Additional observations from a re-analysis of the deposited data

Results flagged for a closer look

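In 6 of the 7 adhesion genes with a probe set, MIF-KO minus CTR-KO had opposite signs in the lines. Among tested genes, 5 of 5 members had opposite signs, as did 67.6% of all. The difference between the lines was not tested, because each line has 1 array per condition. NCAM1 differed by 1.95 (ARP-1) and -0.56 (MM.1S), ALCAM by 1.27 and -0.23, and SELPLG by 0.44 and -0.28. ICAM2 differed by -0.18 and 0.076, ICAM3 by 0.060 and -0.22, and ICAM1, below the filter, by -0.016 and 0.56. Of the 57 tested genes in the adhesion lists, 3 were at least 1.5-fold apart in opposite directions: TSPAN33 by 1.45 (ARP-1) and -1.27 (MM.1S), CNN2 by -0.97 and 0.96, and MSN by -0.63 and 0.86.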

How the results depend on the processing

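With the ARP-1 arrays exchanged, 401 genes and 1 of 5 members (NCAM1) were called for MIF-KO against CTR-KO, where the titles gave 0 and 0, and the mean differences turned to -1.26 for NCAM1, -0.75 for ALCAM, 0.13 for ICAM2 and -0.36 for SELPLG. That alternative makes differences of opposite sign add up. Leaving out 1 line (replicate 1 is the ARP-1 pair, replicate 2 the MM.1S pair) gave values with no test, from -0.56 to 1.95 for NCAM1, -0.23 to 1.27 for ALCAM, -0.18 to 0.076 for ICAM2, -0.22 to 0.060 for ICAM3 and -0.28 to 0.44 for SELPLG. MM.1S minus ARP-1 turned to -1.08 for NCAM1 and -0.48 for ALCAM within MIF-KO, and to 0.085 for ICAM3 and 0.18 for SELPLG within CTR-KO. The fit without the replicate block (no pairing by cell line) left the mean of NCAM1 at 0.70 and changed no call. Both filters, both scalings, the pseudocount, the mean of probe sets and eBayes without a trend changed no call and no direction of a tested member's mean. CD9 moved to 0.03 with the exchange and, with the pseudocount, to 0.19 (0.11 between the lines). ICAM1 and CD9, near or below the array median, have no reliable size.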
